A study of Mus musculus with 18 samples.

Results

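The genes described here are 10 genes that mark fat cells or their lipid metabolism, taken by name from the 41079 genes of the expression table: Adipoq, Lep, Cfd, Plin1, Plin4, Cidec, Pparg, Fabp4, Lpl and Scd1. They were listed as a possible sign of subcutaneous fat in the tumor pieces, and their levels were followed over 18 mouse tumors of 6 groups. The tumors were melanomas of the B16F10 cell line, a mouse melanoma line, grown under the skin of female C57BL/6 mice, in the right flank. From day 6, at a volume near 50 mm3, every tumor was injected every 2 days, and the pieces were collected 48 h after the last injection. The 3 tumors of the PBS group received buffer, and the 3 of the Free PS473 group received PS473, a Pistol ribozyme (a small RNA that cleaves RNA) directed at the mRNA of the immune checkpoint protein PD-L1. In the PS473@CPs group, 3 tumors received the same ribozyme with cationic polymers. The other 9 tumors received the manganese metal–organic framework NKMOF-101-[Mn], in 3 tumors empty, in 3 loaded with the inactive mutant ribozyme M5 (M5@NKMOF-101-[Mn]) and in 3 loaded with PS473 (PS473@NKMOF-101-[Mn]). The titles of the last 3 tumors write the framework as NKMOF-102-[Mn], and they were placed by the treatment description, which names NKMOF-101-[Mn]. Tumors treated with the polymers alone were not analysed here.

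Fat cells store triglyceride in a single large droplet. Its surface is coated by perilipins and its growth is helped by CIDE proteins, and the nuclear receptor PPARγ together with C/EBP factors switches on most of the genes of the mature cell. Mature fat cells secrete adiponectin, leptin and adipsin, take up fatty acids that lipoprotein lipase frees from lipoproteins, and carry them on a fatty acid binding protein. Fat lies directly beneath the skin, where these tumors grow. Several of the 10 genes are also made by other cells: Pparg and Lpl by macrophages, Fabp4 by capillary endothelium and macrophages, and Scd1 by many cell types, among them the sebaceous gland and tumor cells.

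All values are FPKM, that is, fragments scaled by the length of the gene and by all fragments of the tumor, with n = 3 tumors in each group. The depth, recovered from the steps between low values, lay between 17212000 and 28401000 fragments per tumor. Melanoma markers dominated every piece: their summed level (8 genes, led by Dct and Pmel) ranged from 5755 to 8827 FPKM. In pieces of whole tumor, fewer fat cells and less RNA per fat cell cannot be told apart, and the p-values measure only the spread between these tumors.

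The RefSeq promoter table (build GRCm38.p6) holds 7 of the 10 genes: Adipoq, Lep, Cfd, Plin1, Plin4, Cidec and Pparg. The 250 bases before the start are shown for 5 of them. Adipoq, Lep, Cfd and Plin1 varied together across the tumors, as the correlations described later show, while Pparg followed another pattern. Plin4 and Cidec varied with Adipoq, Lep, Cfd and Plin1 as well, and their sequences are not shown. Each sequence is written 5′ to 3′ on the strand of the gene. Capitals mark matches on either strand to 5 short motifs. The core promoter motifs were TATAAA, which TBP binds, and CCAAT, which the factor NF-Y binds. The nuclear receptor half-site was AGGTCA, the half-site of C/EBP factors was GCAAT and their palindrome was TTGCGCAA.
Adipoq, chr16:23146286-23146535, plus strand: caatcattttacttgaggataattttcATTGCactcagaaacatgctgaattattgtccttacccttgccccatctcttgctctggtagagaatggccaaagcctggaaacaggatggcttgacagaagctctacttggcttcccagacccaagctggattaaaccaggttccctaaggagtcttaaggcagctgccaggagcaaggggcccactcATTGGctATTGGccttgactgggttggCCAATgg
Lep, chr6:29059971-29060220, plus strand: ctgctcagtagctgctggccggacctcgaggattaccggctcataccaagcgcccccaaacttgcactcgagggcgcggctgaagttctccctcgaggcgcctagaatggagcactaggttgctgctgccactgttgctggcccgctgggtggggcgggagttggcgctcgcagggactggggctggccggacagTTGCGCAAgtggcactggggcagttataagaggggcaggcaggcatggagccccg
Cfd, chr10:79890603-79890852, plus strand: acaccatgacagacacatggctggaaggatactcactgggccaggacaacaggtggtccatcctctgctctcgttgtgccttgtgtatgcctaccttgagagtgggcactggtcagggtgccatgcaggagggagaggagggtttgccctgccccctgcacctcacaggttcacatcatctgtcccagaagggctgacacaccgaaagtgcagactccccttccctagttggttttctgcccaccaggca
Plin1, chr7:79732777-79733026, minus strand: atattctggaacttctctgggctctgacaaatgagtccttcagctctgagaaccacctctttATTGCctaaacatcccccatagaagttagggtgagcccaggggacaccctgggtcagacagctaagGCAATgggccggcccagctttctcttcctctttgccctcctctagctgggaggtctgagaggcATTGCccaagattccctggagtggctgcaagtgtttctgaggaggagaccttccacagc
Pparg, chr6:115362099-115362348, plus strand: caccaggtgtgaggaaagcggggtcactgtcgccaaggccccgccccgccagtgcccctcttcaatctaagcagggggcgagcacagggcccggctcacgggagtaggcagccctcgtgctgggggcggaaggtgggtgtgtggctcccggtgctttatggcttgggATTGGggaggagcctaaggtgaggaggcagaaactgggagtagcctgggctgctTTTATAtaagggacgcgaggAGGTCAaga

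Adipoq held CCAAT at 3 places within its last 34 bases and GCAAT once, at -223, counted from the first base before the start as -1. Plin1 held GCAAT at 3 places, at -188, -122 and -59. Lep held the palindrome TTGCGCAA at -55, which 0.164% of the 32851 promoters of this length in the table contain. The Pparg start shown is 1 of 3 in the table, and it held TATAAA at -29, CCAAT at -83 and AGGTCA at -9. It is the Pparg start with the most kinds of motif. The start whose window begins at chr6:115360894 held AGGTCA alone, at -28. That at chr6:115421816 held CCAAT alone, at -144 and -22. Cfd held none of these letters in its window. Over the 7 genes, CCAAT was found in 3 (33.8% of all promoters), GCAAT in 3 (23.1%), and TATAAA and AGGTCA in 1 each (12.4% and 14% of all promoters). A gene was counted if any of its starts matched, and the 7 genes have 10 starts in the table. The shares are per promoter, so counts and shares are unlike measures. The full DR1 element of PPARγ, a pair of AGGTCA half-sites 1 base apart, was in none of the 7 and in 0.0335% of all promoters. No match overlapped another in the sequences shown, and these matches describe letters only.

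Among the secreted proteins, Adipoq encodes adiponectin, which among tissues is made almost solely by mature fat cells. Its level was 0, 0.187 and 0.558 FPKM in the PBS tumors, 0.0404, 0.0633 and 1.75 FPKM in Free PS473, and 0.543, 0.744 and 0.657 FPKM in PS473@CPs. It was 2.57, 0.438 and 0 FPKM in NKMOF-101-[Mn], 0.0472, 0.0404 and 0.287 FPKM in M5@NKMOF-101-[Mn], and 0.103, 0.154 and 0.516 FPKM in PS473@NKMOF-101-[Mn]. The highest tumors were NKMOF-101-[Mn] tumor 1 and Free PS473 tumor 3, and each stood well above its group mates. The PS473@CPs tumors lay close together, at 0.648 ± 0.101 FPKM (SD, n = 3).

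Cfd encodes adipsin, the complement factor D that fat cells secrete in large amounts. Its level was 0, 1.14 and 5.49 FPKM in PBS, 1.55, 0.254 and 23.0 FPKM in Free PS473, and 6.18, 4.96 and 4.92 FPKM in PS473@CPs. It was 14.1, 2.84 and 0.706 FPKM in NKMOF-101-[Mn], 0.486, 0 and 1.08 FPKM in M5@NKMOF-101-[Mn], and 0.806, 1.64 and 3.21 FPKM in PS473@NKMOF-101-[Mn]. The same 2 tumors were highest as for Adipoq, and all 3 PS473@CPs tumors lay above all 6 tumors given the framework with a ribozyme. The group means ran from 8.28 ± 12.8 FPKM (SD, n = 3) in Free PS473 to 0.522 ± 0.540 FPKM (SD, n = 3) in M5@NKMOF-101-[Mn].

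Lep encodes leptin, the hormone by which fat cells signal energy stores. It was listed at 0 in 9 of the 18 tumors, among them the 3 tumors that received M5@NKMOF-101-[Mn] and the 3 that received PS473@NKMOF-101-[Mn]. Its level was 0.0153, 0.0157 and 0.0860 FPKM in PBS, 0, 0 and 0.356 FPKM in Free PS473, 0.0457, 0.0250 and 0.135 FPKM in PS473@CPs, and 0.248, 0.0138 and 0 FPKM in NKMOF-101-[Mn]. Even the highest value, in Free PS473 tumor 3, stood for about 24.5 fragments, so a level of 0 cannot be told from a low level at this depth.

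Of the droplet coat genes, Plin1 encodes perilipin 1, the main droplet coat protein of the mature fat cell, which guards the triglyceride against lipases. Its level was 0.0455, 0.0234 and 0.476 FPKM in PBS, 0.102, 0 and 0.991 FPKM in Free PS473, and 0.226, 0.269 and 0.281 FPKM in PS473@CPs. It was 0.838, 0.185 and 0.0256 FPKM in NKMOF-101-[Mn], 0.0265, 0.0453 and 0.138 FPKM in M5@NKMOF-101-[Mn], and 0.0867, 0.0651 and 0.134 FPKM in PS473@NKMOF-101-[Mn]. Free PS473 tumor 3 and NKMOF-101-[Mn] tumor 1 were again the highest, and PBS tumor 3 came next.

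Cidec encodes the CIDE protein that fuses droplets into the single large droplet of white fat. Its level was 0, 0.20 and 1.05 FPKM in PBS, 0.264, 0.0326 and 1.69 FPKM in Free PS473, and 0.415, 0.569 and 0.580 FPKM in PS473@CPs. It was 1.52, 0.201 and 0 FPKM in NKMOF-101-[Mn], 0, 0.0694 and 0.0846 FPKM in M5@NKMOF-101-[Mn], and 0.0236, 0.133 and 0.232 FPKM in PS473@NKMOF-101-[Mn]. The order of tumors at the top was that of Plin1.

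Plin4 encodes perilipin 4, a coat protein of small, newly formed droplets. Its level ran from 0.0121 FPKM in PS473@NKMOF-101-[Mn] tumor 1 to 0.270 FPKM in Free PS473 tumor 3, a range of 22.2-fold. The low values go with a deposited gene length of 40906 bases, longer than the 9362 bases that the whole gene spans in RefSeq (GRCm38.p6), and the number of fragments behind them was 11.0 to 233. The level of Plin4 was therefore compared between tumors only, and not with that of other genes. Other deposited lengths also differ from the merged exons of the GENCODE M21 annotation. The ratio was 0.28 for Fabp4, 0.39 for Lpl, 0.47 for Plin1 and 1.41 for Pparg. Levels of different genes, sums over genes and the filter on mean FPKM depend on these lengths.

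**Figure D1:**
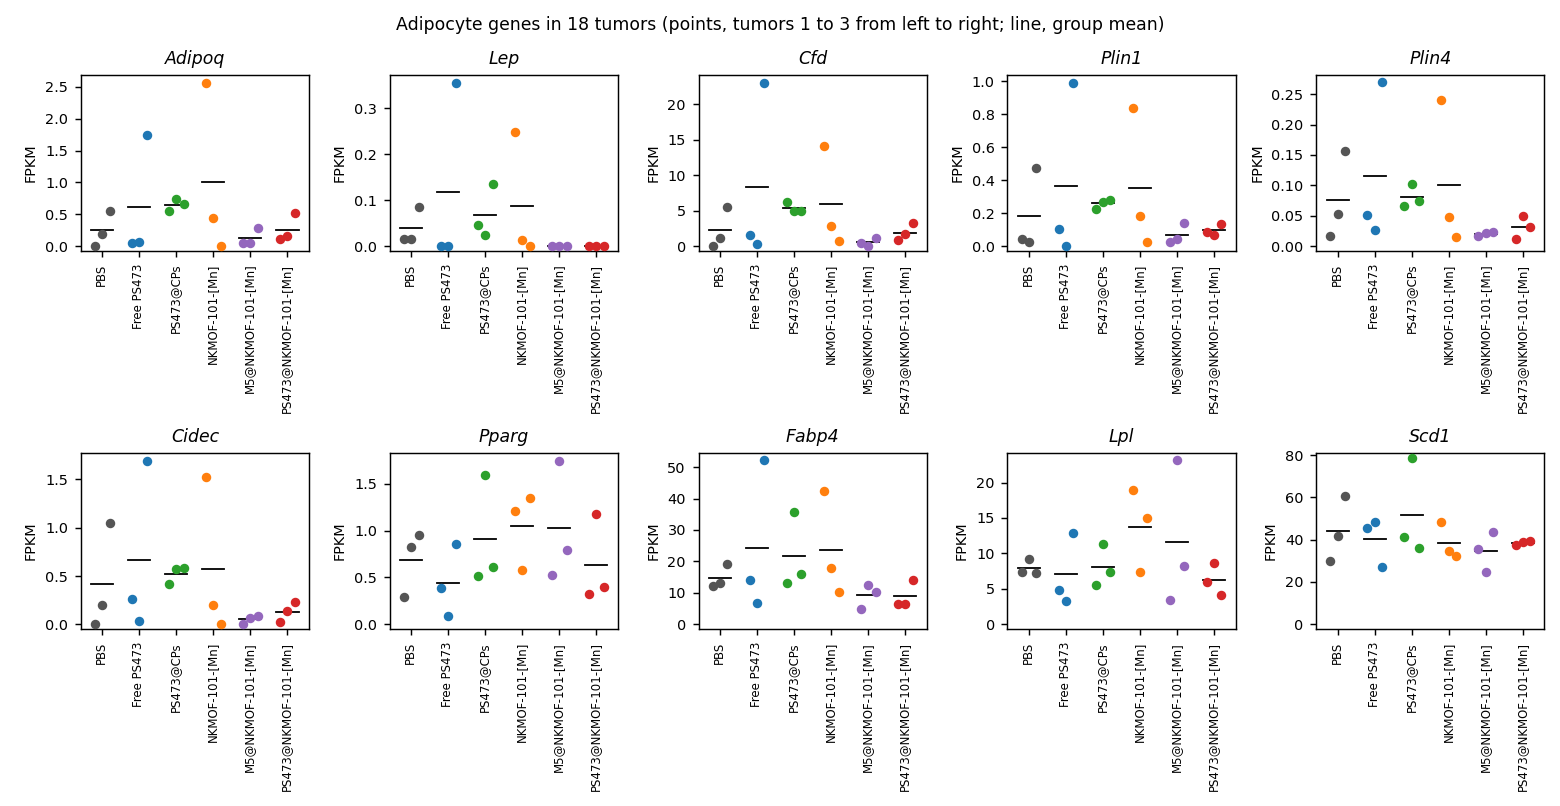
Level (FPKM, linear axes, a scale of its own in each panel) of the 10 adipocyte genes in 18 tumors of 6 groups. Points are tumors 1 to 3 of a group from left to right and lines are group means. Free PS473 tumor 3 and NKMOF-101-[Mn] tumor 1 stand above their group mates for Adipoq, Lep, Cfd, Plin1, Plin4, Cidec and Fabp4, whereas Pparg and Lpl are highest in M5@NKMOF-101-[Mn] tumor 2.

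Among the regulators, Pparg encodes PPARγ, the nuclear receptor that drives fat cell differentiation and also acts in macrophages. Its level was 0.288, 0.830 and 0.954 FPKM in PBS, 0.388, 0.0888 and 0.862 FPKM in Free PS473, and 0.512, 1.60 and 0.608 FPKM in PS473@CPs. It was 1.21, 0.577 and 1.34 FPKM in NKMOF-101-[Mn], 0.530, 1.75 and 0.793 FPKM in M5@NKMOF-101-[Mn], and 0.325, 1.18 and 0.393 FPKM in PS473@NKMOF-101-[Mn]. Its highest tumor, M5@NKMOF-101-[Mn] tumor 2, had Adipoq at 0.0404 FPKM and Cfd at 0, and every group overlapped with every neighbor in the order of means.

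Of the genes of lipid uptake, Fabp4 encodes the fatty acid binding protein of fat cells. Its level was 12.1, 13.0 and 19.3 FPKM in PBS, 14.1, 6.77 and 52.2 FPKM in Free PS473, and 13.0, 35.7 and 16.0 FPKM in PS473@CPs. It was 42.3, 17.8 and 10.4 FPKM in NKMOF-101-[Mn], 4.85, 12.4 and 10.2 FPKM in M5@NKMOF-101-[Mn], and 6.52, 6.46 and 14.2 FPKM in PS473@NKMOF-101-[Mn]. The top 2 tumors were those of Adipoq, but no tumor was near 0, and the range was 10.7-fold.

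Lpl encodes lipoprotein lipase, the enzyme that frees fatty acids from circulating lipoproteins. Its level was 7.41, 9.19 and 7.17 FPKM in PBS, 4.91, 3.34 and 12.9 FPKM in Free PS473, and 5.57, 11.4 and 7.40 FPKM in PS473@CPs. It was 19.0, 7.41 and 15.0 FPKM in NKMOF-101-[Mn], 3.47, 23.2 and 8.20 FPKM in M5@NKMOF-101-[Mn], and 5.94, 8.64 and 4.19 FPKM in PS473@NKMOF-101-[Mn]. Like Pparg, it was highest in M5@NKMOF-101-[Mn] tumor 2 and lowest in Free PS473 tumor 2.

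Scd1 encodes the stearoyl-CoA desaturase that makes monounsaturated fatty acids, and it was the most abundant of the 10 genes, with a mean of 41.4 FPKM over the 18 tumors. Its level was 30.1, 42.0 and 60.7 FPKM in PBS, 45.4, 48.3 and 27.0 FPKM in Free PS473, and 41.1, 78.4 and 36.0 FPKM in PS473@CPs. It was 48.3, 34.5 and 32.4 FPKM in NKMOF-101-[Mn], 35.7, 24.9 and 43.6 FPKM in M5@NKMOF-101-[Mn], and 37.6, 38.7 and 39.6 FPKM in PS473@NKMOF-101-[Mn]. It varied least of the 10 genes, by 3.15-fold from the lowest to the highest tumor, and in Free PS473 its lowest tumor was the one in which Cfd and Plin1 were highest.

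For each of the 10 genes the 6 group means were put in order, which gives 50 pairs of neighbors. In 49 of the 50 pairs the tumors of the neighboring groups overlapped. Neighbors in such an order are the closest groups by construction, so overlap was likely from the outset with 3 tumors a group. The count is a description, does not show that neighbors are alike, and says nothing of groups farther apart. The exception was Lep, for which the PBS tumors (the fourth group) lay above the 3 tumors at 0 in the next group. The level of the 5 genes that define mature fat cells (Adipoq, Plin1, Lep, Cidec and Cfd), summed in each tumor, ran from 0.0609 FPKM in PBS tumor 1 to 27.8 FPKM in Free PS473 tumor 3. Cfd made up 67.9% to 96.5% of the sum wherever it was above 0, so the sum mostly repeats Cfd. In PS473@CPs this sum was 6.85 ± 0.480 FPKM (SD, n = 3), in PS473@NKMOF-101-[Mn] 2.37 ± 1.57 FPKM (SD, n = 3) and in M5@NKMOF-101-[Mn] 0.768 ± 0.739 FPKM (SD, n = 3). In the other groups the SD of the sum was above its mean: 3.10 ± 4.03 FPKM in PBS, 10.0 ± 15.4 FPKM in Free PS473 and 7.88 ± 9.94 FPKM in NKMOF-101-[Mn] (SD, n = 3).

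The 10 genes did not move as a single group across the tumors. The 21 pairs among Adipoq, Plin1, Plin4, Fabp4, Cfd, Lep and Cidec had Spearman rho of 0.73 to 0.95 over the 18 tumors, with Plin4 and Cidec the closest pair. Against these 7 genes, Pparg had rho of 0.25 to 0.34, Lpl 0.14 to 0.33 and Scd1 0.14 to 0.44. Pparg and Lpl were close to each other (rho 0.83), whereas Scd1 had rho of -0.00 with Pparg and -0.23 with Lpl. The values of a pair come from the same libraries and share their depth, and the split into 7 and 3 genes was seen in these data.

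**Figure D2:**
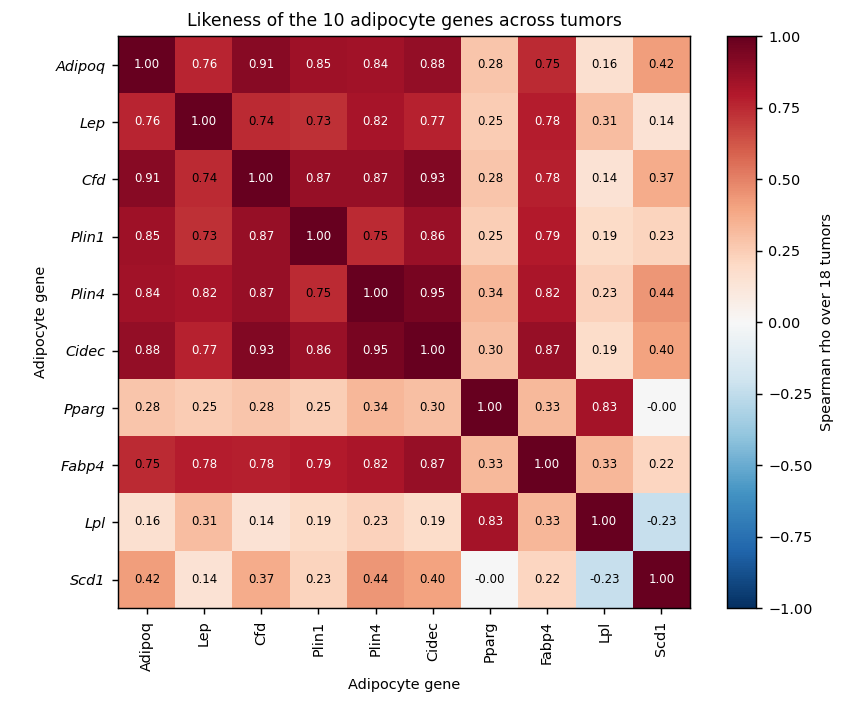
Spearman rho (color, from -1 to 1) of log2(FPKM + 1) over 18 tumors for each pair of the 10 adipocyte genes. The 7 genes Adipoq, Lep, Cfd, Plin1, Plin4, Cidec and Fabp4 share high values (0.73 to 0.95), and Pparg and Lpl form a pair of their own (0.83).

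Adipoq was compared with each of the 9 other genes on log2(FPKM + 1), with two-sided permutation tests of 100000 resamples and Benjamini-Hochberg adjustment over the 9 relations. For 6 of the 9 the relation passed by both measures. Cfd had Pearson r of 0.92 (p = 1e-05, the smallest p the resamples can give, adjusted p = 2.25e-05) and Spearman rho of 0.91 (p = 1e-05, adjusted p = 4.5e-05), and Cidec had r of 0.92 and rho of 0.88 with the same p-values. Plin1 had r of 0.94 and rho of 0.85, Plin4 0.91 and 0.84, Lep 0.87 and 0.76, and Fabp4 0.84 and 0.75, with adjusted permutation p of at most 0.000825. Pparg (r of 0.28, adjusted permutation p = 0.298), Lpl (0.38, 0.152) and Scd1 (0.21, 0.398) did not pass. Without Free PS473 tumor 3 and NKMOF-101-[Mn] tumor 1, the 2 tumors farthest from the median of Adipoq, r was 0.92 for Cfd, 0.84 for Plin1, 0.81 for Cidec, 0.71 for Plin4, 0.70 for Fabp4 and 0.64 for Lep, and all 6 relations still passed by both measures. Without them Scd1 passed as well, with r of 0.55 (adjusted permutation p = 0.0287) and rho of 0.55 (adjusted p = 0.040), whereas Lpl (r of -0.05) and Pparg (0.15) did not.

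Markers of 10 other cell types or tissues were read in the same pieces, because a piece with fat may hold other tissue of the skin as well. The summed level of the epidermis markers (15 genes found, led by Krt14 and Lgals7) ran from 8.36 to 4454 FPKM, that of skeletal muscle (14 genes, led by Acta1 and Mylpf) from 3.40 to 70.3 FPKM, and that of the sebaceous gland (10 genes, led by Mgst1 and Soat1) from 25.2 to 133 FPKM. The low end of the sebaceous sum does not show the gland in every piece. Mgst1, Soat1, Far2, Awat2 and Scd3 were above 0 in every tumor, whereas Mc5r, Fa2h, Krt79, Awat1 and Dgat2l6 were at 0 in 5, 5, 7, 10 and 12 tumors. Hair follicle markers (12 genes, led by Tchh and Padi3, at most 1.25 FPKM in sum) and mammary gland markers (8 genes, led by Wfdc18 and Wap, at most 0.484 FPKM in sum, 3 of them at 0 in all tumors) were near 0 in every piece. The epidermis sum was 10.1, 11.7 and 383 FPKM in Free PS473, 1146, 10.5 and 112 FPKM in NKMOF-101-[Mn], and 16.2, 3623 and 1445 FPKM in PBS. PS473@CPs tumor 2, the highest in epidermis markers (4454 FPKM), had Adipoq at 0.744 FPKM, and PBS tumor 2, the next, had it at 0.187 FPKM. NKMOF-101-[Mn] tumor 1, the highest in Adipoq, had an epidermis sum of 1146 FPKM, below those of PS473@CPs tumor 2 and PBS tumors 2 and 3.

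Over the 18 tumors, Adipoq rose with the mean log2 level of 4 of the 10 lists by Pearson's r, adjusted over 10 relations. These were endothelium (10 genes, led by Egfl7 and Plvap; r of 0.70, adjusted permutation p = 0.0109), preadipocytes (9 genes, led by Ly6a and Pdgfrb; 0.66, 0.0118), fibroblasts (8 genes, led by Col1a1 and Col1a2; 0.65, 0.0109) and macrophages (10 genes, led by Lyz2 and C1qb; 0.58, 0.0294). The Spearman rho were 0.68, 0.64, 0.66 and 0.37, the first 3 with an adjusted permutation p of 0.0187 and that of macrophages with 0.166. The lists of epidermis (r of 0.49), sebaceous gland (0.52), skeletal muscle (0.38), hair follicle (0.22), mammary gland (0.04) and melanoma (-0.41) did not pass. With a pseudocount of 0.1 some of these calls changed: sebaceous gland passed by both measures (adjusted permutation p = 0.0375 for r and 0.0141 for rho), epidermis passed by r (0.0453), and macrophages no longer did (0.0676). Without the 2 tumors farthest from the median of Adipoq, 0 of the 10 relations passed by either measure. Then r was 0.56 for endothelium and 0.55 for preadipocytes and fibroblasts (adjusted permutation p = 0.0867 for each, with 2 fewer tumors), and 0.14 for macrophages, whose relation rests on those tumors.

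The other 9 genes were set against the same 10 lists after the data were seen, which gives 90 relations with p-values adjusted over all of them. By both measures 16 passed, and 9 without the 2 tumors farthest from the median of each gene. Lpl followed the macrophage markers most closely (r of 0.88, adjusted permutation p = 0.00045, and rho of 0.87, adjusted p = 0.0009), and Pparg followed them as well (r of 0.82, adjusted permutation p = 0.0015, and rho of 0.84, adjusted p = 0.0012). Fabp4 followed the endothelium markers (r of 0.87, adjusted permutation p = 0.00045, and rho of 0.87, adjusted p = 0.0009). Each of these 3 relations also passed without the 2 tumors farthest from the median of the gene, with r of 0.87, 0.77 and 0.82. Macrophages were not the single list for Pparg and Lpl. Without those tumors Pparg also passed by both measures with preadipocytes (r of 0.79), epidermis (0.79), sebaceous gland (0.77) and fibroblasts (0.77), and its highest rho was with fibroblasts (0.85, against 0.81 for macrophages). Lpl also passed with preadipocytes (r of 0.69) and fibroblasts (0.69). Scd1 passed with no list by both measures, and its r of 0.69 with the sebaceous gland list fell to 0.48 without PS473@CPs tumor 2 and M5@NKMOF-101-[Mn] tumor 2. Whether macrophages or endothelium were the source of these transcripts was not tested.

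**Figure D3:**
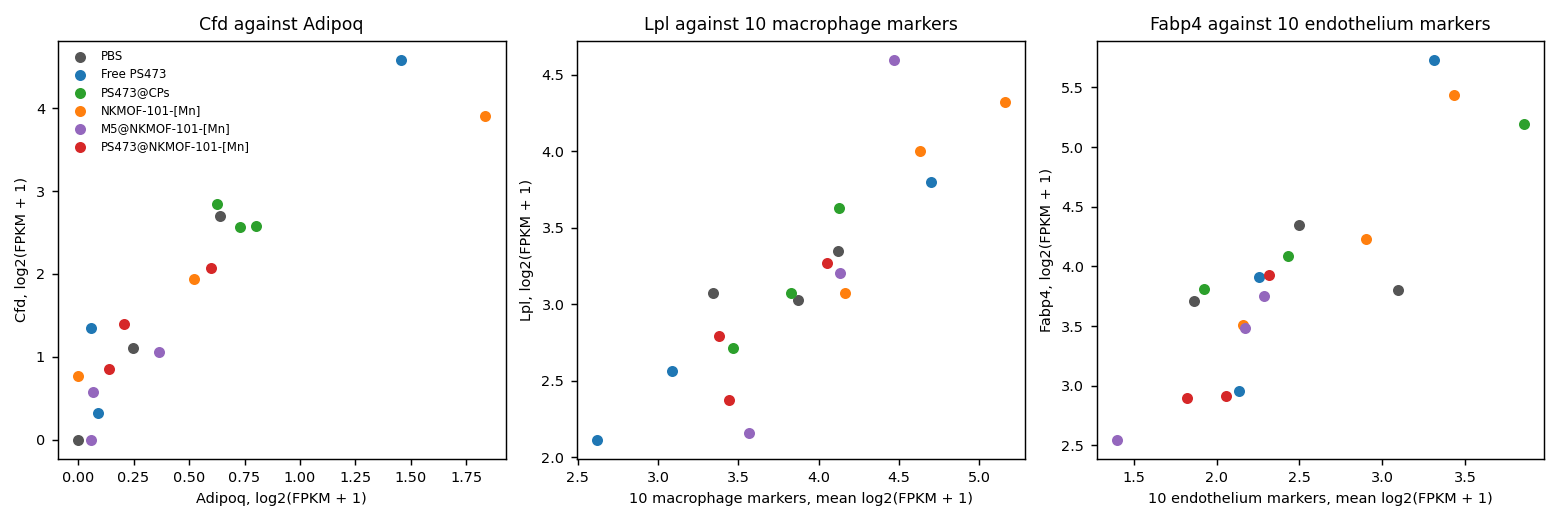
Points are the 18 tumors, colored by group, on log2(FPKM + 1) axes: Cfd against Adipoq (left), Lpl against the mean of 10 macrophage markers (middle) and Fabp4 against the mean of 10 endothelium markers (right). Each pair rises together (r of 0.92, 0.88 and 0.87), and the 3 PS473@CPs tumors lie close together in the left panel.

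**Figure D4:**
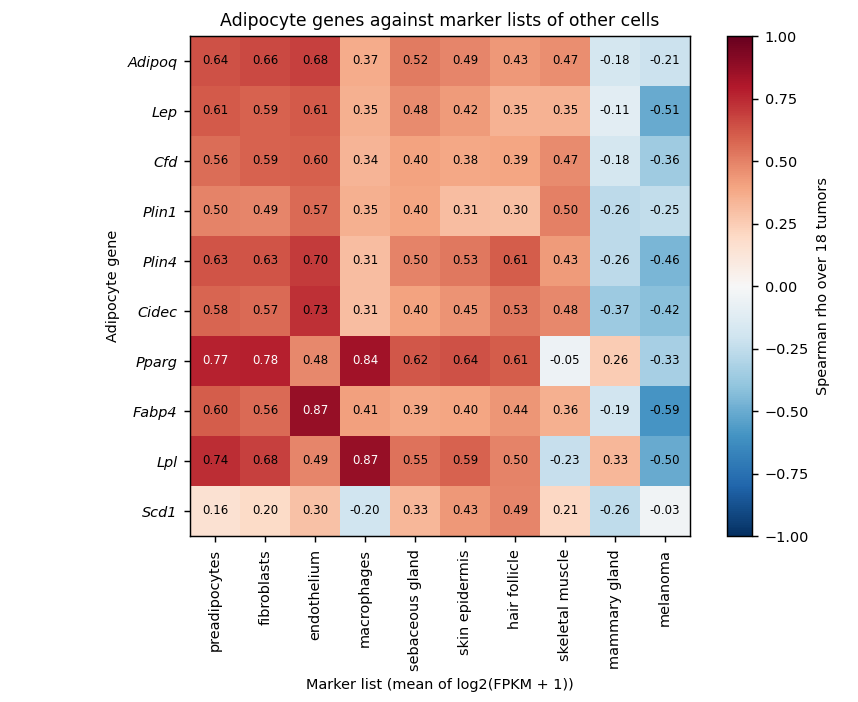
Spearman rho (color, from -1 to 1) over 18 tumors between each adipocyte gene (rows) and the mean log2(FPKM + 1) of each marker list (columns). Lpl and Pparg are highest with macrophages (0.87 and 0.84), Fabp4 with endothelium (0.87), and the melanoma column is below 0 for all 10 genes.

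The question of the comparisons between groups was whether any treatment changed these genes. limma was fitted on log2(FPKM + 1) to all 18 tumors, for the 12357 genes whose mean was at least 1 FPKM, and 4 of the 10 genes (Fabp4, Cfd, Lpl and Scd1) passed this filter. In all 11 tests (the 5 treatments against PBS, PS473@NKMOF-101-[Mn] against the other 4 treatments, the 3 framework groups against the 3 other groups, and the 6 groups at once), 0 of the 4 genes passed an adjusted p of 0.05, as did 0% of all genes. At an unadjusted p under 0.05 the count was also 0 of 4 in each test, where the share of all genes was 1.81% for Free PS473, 2.09% for PS473@CPs, 1.46% for NKMOF-101-[Mn], 1.51% for M5@NKMOF-101-[Mn] and 2.10% for PS473@NKMOF-101-[Mn] against PBS. For PS473@NKMOF-101-[Mn] it was 4.98% against Free PS473, 2.29% against PS473@CPs, 2.30% against the empty framework and 0.591% against the framework with M5. It was 4.56% for the 3 framework groups against the others and 1.99% for the 6 groups. With no filter (31286 genes, all 10 adipocyte genes) and with a filter at a mean of 0.1 FPKM (8 of the 10, without Plin4 and Lep), 0 of the adipocyte genes passed the adjusted threshold in these tests, and with no filter limma called 0 to 4 genes in all, none of them among the 10.

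Against PBS, the largest difference in Free PS473 was that of Cfd, 0.82 (SE 0.96) on the log2 scale, and it was -0.43 without Free PS473 tumor 3. In PS473@CPs it was again Cfd, 1.40 (SE 0.96), and in NKMOF-101-[Mn] Cfd, 0.94 (SE 0.96). In M5@NKMOF-101-[Mn] it was that of Cfd, -0.72 (SE 0.96), and in PS473@NKMOF-101-[Mn] the largest difference was that of Fabp4, -0.71 (SE 0.63). Over the 4 genes tested, the median difference was 0.06, 0.30, 0.54, -0.51 and -0.24 in these 5 comparisons, beside 0.03, -0.01, 0.03, -0.01 and -0.01 over all genes tested. Lep was the single gene of the 10 whose tumors did not overlap with PBS, in the framework groups with M5 and with PS473 only, where it was listed at 0 and PBS tumors 1 and 2 stood at about 1 fragment each. All tumors lay lower for 3.37% and 2.60% of the 31286 genes in these 2 comparisons. The 5 comparisons share the PBS tumors.

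Of the 9 comparisons of a pair of groups, that of PS473@NKMOF-101-[Mn] with PS473@CPs separated the tumors for the most adipocyte genes. For 6 of the 10 genes (Adipoq, Cfd, Cidec, Lep, Plin1 and Plin4) all 3 PS473@NKMOF-101-[Mn] tumors lay below all 3 PS473@CPs tumors, as did 2.22% of the 31286 genes. The margins rest on few fragments for most of them. The lowest PS473@CPs and the highest PS473@NKMOF-101-[Mn] tumor stood at 13.5 and 13 fragments for Adipoq, 10 and 6 for Plin1, and 15 and 8.5 for Cidec. For Plin4 they stood at 54.75 and 43, and for Cfd at 150.5 and 70.5. These Cfd counts come from tumor 3 of each group, with depths of 28401000 and 20438000 fragments, so they overstate the margin. Scaled for depth, Cfd stood at 4.92 FPKM in PS473@CPs tumor 3 and 3.21 FPKM in PS473@NKMOF-101-[Mn] tumor 3. Lep stood at 3, 2 and 12.5 fragments against 0. These 6 genes share the same tumors and vary together, and they are not 6 independent results. The largest difference among the 4 genes that passed the filter was that of Cfd, -1.22 on the log2 scale (SE 0.96), followed by Fabp4 with -1.12 (SE 0.63), and the smallest adjusted limma p of the 4 was 0.996. The median over the 4 genes was -0.73, beside 0.00 over all genes tested. Over all 10 genes, with no filter, every fitted difference was below 0, and the median was -0.33.

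The fit shares 1 estimate of the spread over all 18 tumors, Free PS473 tumor 3 and NKMOF-101-[Mn] tumor 1 included. When the 6 tumors of this comparison were fitted alone and with no filter, a choice made after the data were seen, 5 of the 10 genes had an unadjusted p under 0.05, as did 1.62% of the 28226 genes fitted. They were Plin1 (difference -0.20, SE 0.04), Cidec (-0.43, SE 0.09), Cfd (-1.22, SE 0.32), Plin4 (-0.07, SE 0.02) and Adipoq (-0.40, SE 0.14). The adjusted limma p was 0.981 for each in this fit, so none was called. Beside these values, the epidermis sum was 11.6, 4454 and 112 FPKM in PS473@CPs and 10.3, 349 and 37.0 FPKM in PS473@NKMOF-101-[Mn], and the preadipocyte sum 9.5, 89.0 and 27.3 FPKM against 9.8, 30.2 and 12.3 FPKM. PS473@CPs tumor 1 had Adipoq at 0.543 FPKM (13.5 fragments) and Cfd at 6.18 FPKM. PS473@NKMOF-101-[Mn] tumor 3, the highest of its group, had them at 0.516 FPKM (13 fragments) and 3.21 FPKM, and the 2 Adipoq levels cannot be told apart at this depth. The part of other tissue in the difference was not tested.

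PS473@NKMOF-101-[Mn] was also compared with its other controls. Against the empty framework, Fabp4 differed by -1.15 on the log2 scale (SE 0.63) and Lpl by -0.98 (SE 0.54), which had the smallest unadjusted p of the 4 genes in the 11 tests and an adjusted limma p of 1.00. Macrophage markers, with which Lpl moved across the tumors, were lower for 10 of 10 genes in the same comparison, and 0 of the 10 passed the adjusted threshold. They mark the same cell type, and their count was not set against the share of all genes that were lower. Their sum was 570, 304 and 363 FPKM in NKMOF-101-[Mn], tumor 1 being the highest of all tumors. It was 150, 271 and 181 FPKM in PS473@NKMOF-101-[Mn]. Whether macrophages account for the difference of Lpl was not tested. Without NKMOF-101-[Mn] tumor 1 the difference of Fabp4 was -0.63 (range without each tumor -1.59 to -0.63). Against Free PS473, Fabp4 differed by -0.96 (SE 0.63), with -0.19 without Free PS473 tumor 3 and -1.58 without Free PS473 tumor 2, and against M5@NKMOF-101-[Mn] Cfd by 0.90 (SE 0.96). The 3 framework groups together differed from the 3 others by -0.61 for Cfd (SE 0.55) and -0.54 for Fabp4 (SE 0.36). The difference of Cfd was -0.19 without Free PS473 tumor 3 and -0.37 without PBS tumor 3 or NKMOF-101-[Mn] tumor 3. Over all tumors left out in turn it ran from -0.90 to -0.19. The intervals were wide: for Cfd in PS473@NKMOF-101-[Mn] against PBS, the 95% interval of the log2 difference ran from -1.88 to 2.23.

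**Figure D5:**
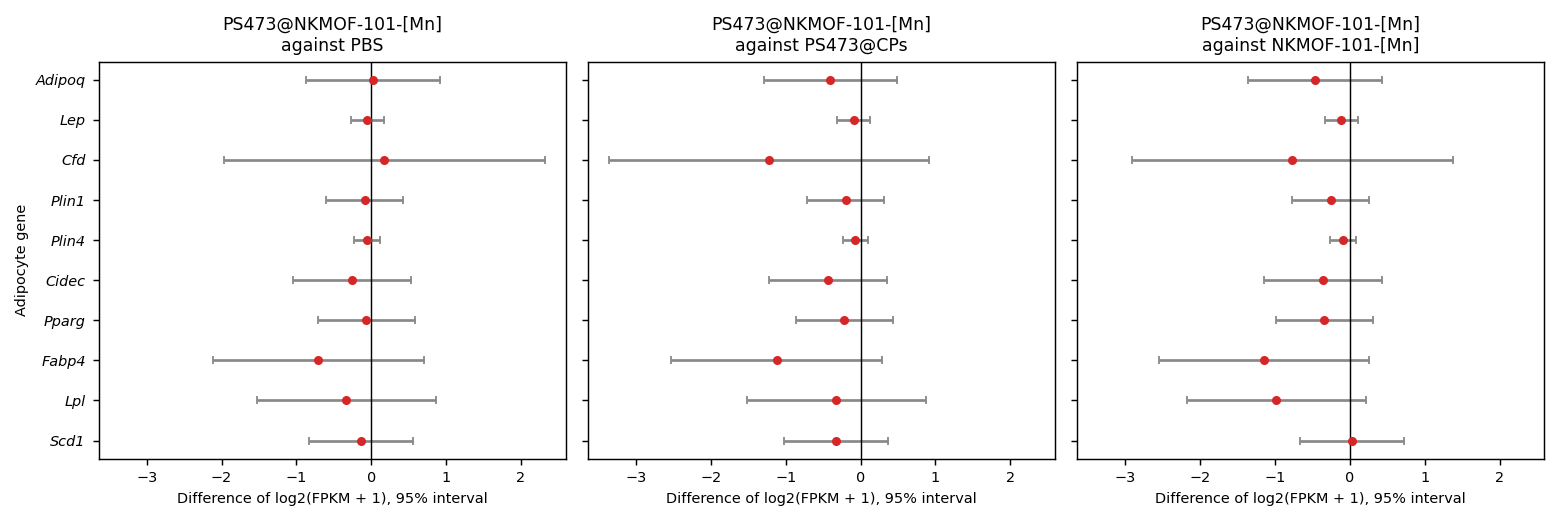
Difference in log2(FPKM + 1) (points) with its 95% interval (bars) for the 10 adipocyte genes, from limma with no filter, in PS473@NKMOF-101-[Mn] against PBS, PS473@CPs and NKMOF-101-[Mn]. Every interval includes 0, and in the middle panel all 10 points lie below 0.

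Other genes of the fat cell were read from 7 lists with 80 genes in all, and 0 of their genes passed the adjusted threshold in any of the 11 tests. Among 12 lipid droplet proteins (9 tested), Plin3 (mean 87.9 FPKM, range 62.6 to 114), Hilpda (40.9, 24.0 to 73.2) and Plin2 (18.3, 12.4 to 22.3) were the most abundant, and none of the 3 fell near 0 in any tumor as Plin1 and Cidec did. Among 16 genes of fatty acid and triglyceride synthesis (15 tested) they were Scd2 (307 FPKM, 231 to 392), Fasn (88.2, 52.2 to 127) and Acly (69.6, 53.6 to 85.6). Among 10 genes of lipolysis (4 tested) they were Mgll (47.9 FPKM, 18.7 to 105), Pnpla2 (21.6, 17.9 to 27.2) and Prkar2b (14.7, 11.0 to 18.2).

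Among 12 adipocyte transcription factors (8 tested), Cebpb (17.7 FPKM, 6.52 to 50.4), Srebf1 (15.8, 12.4 to 18.5) and Rxra (10.2, 6.72 to 12.3) were the most abundant. Among 10 genes of lipid and glucose uptake (9 tested) they were Fabp5 (266 FPKM, 158 to 565), the epidermal fatty acid binding protein, Gpihbp1 (8.35, 1.35 to 25.7), which anchors lipoprotein lipase on capillaries, and Insr (4.75, 3.22 to 6.17). Among 12 adipokines and receptors (5 tested) they were Adipor1 (57.2 FPKM, 50.7 to 69.3), Adipor2 (15.4, 13.0 to 17.2) and Apln (5.93, 2.09 to 16.4). Of 8 brown and beige fat genes (2 tested), Prdm16 (19.6 FPKM, 13.7 to 24.6), Ppargc1a (12.5, 7.81 to 18.4) and Cox7a1 (0.867, 0.348 to 1.41) led, and Ucp1, the uncoupling protein that defines brown fat, was at most 0.0311 FPKM.

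As a description, the likeness of these genes to the mean of Adipoq, Plin1, Lep, Cidec and Cfd was computed over the 18 tumors. A Spearman rho of at least 0.5 was reached by 6.76% of the 31286 genes above 0. It was reached by 4 of 10 genes of lipolysis, 4 of 12 lipid droplet proteins, 4 of 12 adipokines and receptors, 1 of 12 transcription factors, 1 of 16 synthesis genes, 1 of 10 uptake genes and 0 of 8 brown and beige fat genes. Some lists of other tissues reached higher shares: 6 of 8 fibroblast, 7 of 10 endothelium, 9 of 15 epidermis and 4 of 9 preadipocyte genes. The 5 closest in the fat gene lists, named after their values were seen, were Pck1 (rho 0.83, at most 0.679 FPKM), which makes the glycerol backbone of triglyceride in fat cells, Lipe (0.80), the hormone-sensitive lipase, Retn (0.78), which encodes resistin, Npr1 (0.71), a natriuretic peptide receptor that promotes lipolysis, and Adig (0.71), which encodes adipogenin. For the abundant Fasn, Scd2 and Plin2 rho was -0.15, -0.01 and 0.19.

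Among the genes that are in no list and whose mean was at least 1 FPKM, the 10 genes most like the mean of all 10 adipocyte genes were ranked by Spearman rho over the 18 tumors. They were Hp (rho 0.92), Fam167b (0.88), Gpx3 (0.88), Ccn3 (0.87), Gas6 (0.87), Postn (0.87), Vcam1 (0.87), Ms4a4a (0.87), Gimap6 (0.86) and Mgp (0.86). Hp, which encodes haptoglobin, a binder of free hemoglobin, ran from 0.366 to 20.4 FPKM, and Gpx3, a secreted glutathione peroxidase, from 0.928 to 19.0 FPKM. Postn (periostin, a matrix protein) ran from 1.99 to 72.5 FPKM. By Pearson's r 5 of the 10 stayed among the first 10, with Hp first (0.95), and without the 2 tumors of the highest mean 9 of the 10 did. Of the 12357 genes tested, 8.73% had rho of at least 0.5 with this mean. Of the 4 adipocyte genes among them, 2 did, although each is part of the mean. The ranking therefore describes likeness to a mean that not all of the adipocyte genes follow. The points share their libraries, and no test was made.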

How the data were processed

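RNA of 18 tumors was enriched for poly(A) and sequenced. The authors deposited 1 table of FPKM values for 41079 genes, with 1 length per gene; these values correct for the length of a gene and for the depth of a tumor. In it FPKM times length in kilobases adds up to 1000000 per tumor. Per the labels the build is GRCm39, while the aligner, the counting tool and the annotation are not given in the sources used here. Depth was recovered as the commonest low step of FPKM times length, and 49.4% to 55.0% of the low values were whole within 0.02 fragments, so no count model was used for the main tests. Multiply mapped and antisense reads could not be assessed. All 18 columns were used, and no tumor held the values of another.

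Values were transformed to log2(FPKM + 1) and fitted with limma 3.58.1 in R 4.3.3 (6 group means, trend on mean expression, genes whose mean was at least 1 FPKM), with Benjamini-Hochberg adjustment over all genes tested. Differences are on this scale, which understates changes of low genes. Correlations used Python 3.11.15 and scipy 1.17.1 with 100000 resamples. The fit was tested on simulated data. The alternatives were a pseudocount of 0.1, other filters, quantile and upper-quartile scaling, the compared groups alone, no trend, array weights, a replicate block and each tumor left out, and voom on recovered fragments and combinations with no filter were added after the data were seen.

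The 10 genes and the 17 lists (184 of 185 genes found, 10 lists for other tissues) were chosen with earlier results of these data known. The text gives every adipocyte gene in every tumor or by its range, in each comparison the one with the largest difference, the leading genes of each list by mean level, and the 10 most similar genes outside the lists. Promoters come from RefSeq (GRCm38.p6), a build other than that of the values, which were matched by symbol.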

Additional observations from a re-analysis of the deposited data

How the results depend on the processing

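In the 11 tests, 0 of the adipocyte genes fitted passed the adjusted threshold under any alternative run. Of 348 counts compared, 0 were different, and these include the counts at an unadjusted p under 0.05 in the main fit. The main fit called 0% of all genes, so unchanged counts of 0 were likely from the outset. The difference of Cfd in Free PS473 against PBS, 0.82, turned to -0.67 with array weights and to -0.43 without Free PS473 tumor 3 (range without each tumor -0.43 to 1.70), and the other 306 refits of the named differences kept their direction. Cfd in NKMOF-101-[Mn] against PBS ranged from 0.09 to 1.66 and in M5@NKMOF-101-[Mn] against PBS from -1.36 to -0.01 without each tumor, against -1.54 to -0.93 in PS473@NKMOF-101-[Mn] against PS473@CPs. Cfd in PS473@CPs against PBS ranged from 0.76 (without PBS tumor 1) to 2.11 (without PBS tumor 3). The relations of Adipoq with other tissues that passed went from 4 to 0 (Pearson) and from 3 to 0 (Spearman) without the 2 tumors farthest from its median, with 2 fewer tumors. With the replicate block, 0 of the adipocyte genes were called, and the block changed no call. Equal replicate numbers did not pair the tumors: the mean correlation of deviations was -0.02 for the 45 pairs of the same number (-0.73 to 0.72) and 0.01 for the 90 pairs of other numbers. With 3 tumors a group, and 0 to 64.5 fragments per tumor for Adipoq, the depth and the spread limit these comparisons, and a p above the threshold does not show that groups are alike.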
